A study of Mus musculus with 9 samples.

Results

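The genes described here are 10 genes of the mammalian amino acid stress response and of serine synthesis. Atf4 encodes a transcription factor, and Ddit3, Trib3 and Chac1 are stress-response genes. Asns is the asparagine enzyme, Phgdh, Psat1 and Psph are the serine enzymes, and Shmt2 and Mthfd2 are mitochondrial one-carbon enzymes. All 10 were chosen by name, with earlier results of these data known. Each was read from the probe set of highest mean among those annotated to that gene alone, and all 10 were measured, of 19938 genes tested. Levels are on a log2 scale, as robust multi-array averaging (RMA) gives them, so a difference of 1 is a 2-fold change, and each level holds for its own probe set only.

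When a cell lacks amino acids or its endoplasmic reticulum is overloaded, kinases phosphorylate the translation factor eIF2α, which lowers protein synthesis as a whole but lets the Atf4 messenger be translated. ATF4 protein, usually with a C/EBP partner, then switches on genes for amino acid synthesis and uptake, for tRNA charging and, under lasting stress, for cell death. Serine synthesis branches off glycolysis, and its product feeds glycine, folate-bound one-carbon units and nucleotides. Because ATF4 is controlled mainly through its translation, the level of Atf4 RNA does not measure its activity.

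The study holds 9 mouse arrays in 3 groups of 3. The AS cell lines are 3 separately derived hepatic angiosarcoma lines, a cancer of vessel-lining cells, grown by long culture from endothelial cells that were taken from knockout livers with a visible tumour. KO liver comes from MxCre Notch1 lox/lox mice, in which an interferon-inducible Cre removes the exon for the signal peptide of Notch1, in any cell that responds. WT liver comes from Notch1 lox/lox mice without Cre. The C57Bl/6 background was common to all mice, and from the age of 4 weeks they received 300 µg of the double-stranded RNA mimic poly(I:C) on days 0, 3 and 6; only the KO mice and those that gave rise to the lines carried Cre. The extraction protocol names PHH as the source of RNA, an abbreviation left unexplained, although the labels give liver and cell lines. Culture, tissue of origin and tumour state differ together between the lines and the livers and cannot be told apart.

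Notch1 stood at 8.75, 8.61 and 7.83 in AS lines 1, 2 and 3, at 7.84, 8.75 and 8.52 in KO livers 1, 2 and 3, and at 11.69, 11.02 and 11.71 in WT livers 1, 2 and 3. Its level was lower in all 6 arrays of Notch1 knockout origin than in any WT array; the KO minus WT difference was -3.10 (SE 0.302), with an adjusted p of 0.0995. The lines did not carry the markers of their labelled cell type: all 18 endothelial genes measured were lower than in KO and in WT livers, and their list mean was 6.29 to 6.59 in the lines, against 11.57 to 12.02 in KO livers and 11.58 to 11.69 in WT livers. Array medians over all genes ran from 6.96 to 7.17. The mean of 22 hepatocyte genes was 7.68, 9.73 and 7.72 in lines 1, 2 and 3, at 10.65, 12.69 and 9.34 in KO livers 1, 2 and 3, and at 11.64, 12.65 and 12.66 in WT livers 1, 2 and 3. KO livers 1 and 3 were the lowest livers for these genes, and line 2 stood above the other lines. Of 9 bile duct genes, 6 rose in the lines and 0 fell against KO livers at an adjusted p under 0.05. Of all genes tested, 11.4% rose and 10.1% fell there. Against WT livers 6 bile duct genes rose and 1 fell, where 17.6% of all genes rose and 11.1% fell. The keratin Krt19 stood at 11.82, 12.18 and 11.93 in lines 1, 2 and 3, against 5.67 to 5.83 in KO livers and 6.19 to 6.76 in WT livers, while Epcam, a marker of the same cells, stood at 5.71, 5.56 and 6.02 in lines 1, 2 and 3, against 5.33 to 5.49 in KO livers and 5.84 to 6.77 in WT livers. Cldn7, named after its values were seen, was the gene that fell against WT livers, by a difference of -0.51 (adjusted p = 0.0229). Alb, 1 of the 22 hepatocyte genes, was at 12.31, 13.67 and 12.82 in lines 1, 2 and 3. It was at 13.52, 13.86 and 12.14 in KO livers and at 13.84, 13.87 and 13.96 in WT livers. Of the 22 genes, 0 rose and 5 fell in the lines against KO livers, and 0 rose and 13 fell against WT livers.

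The start of each gene is shown for 5 of the 10, because ATF4 acts through a short composite element that can be looked for in letters. The windows are RefSeq sequence of build GRCm38.p6, from 250 bases before to 50 after the annotated start, and run 5′ to 3′ along the gene's own strand. Capitals mark TGATGNAA, the core of the C/EBP-ATF element, or the same letters read from the opposite strand. The windows are that of Asns at chr6:7693160-7693459 (minus strand), of Chac1 at chr2:119350992-119351291 (plus strand), of Trib3 at chr2:152344011-152344310 (minus strand), of Psat1 at chr19:15925010-15925309 (minus strand) and of Phgdh at chr3:98339920-98340219 (minus strand).
Asns: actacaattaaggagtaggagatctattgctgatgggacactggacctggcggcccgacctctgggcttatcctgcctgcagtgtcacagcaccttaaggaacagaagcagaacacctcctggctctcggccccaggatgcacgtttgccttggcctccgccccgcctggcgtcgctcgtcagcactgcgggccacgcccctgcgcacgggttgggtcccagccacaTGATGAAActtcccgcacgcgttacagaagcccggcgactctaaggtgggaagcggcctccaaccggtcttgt
Chac1: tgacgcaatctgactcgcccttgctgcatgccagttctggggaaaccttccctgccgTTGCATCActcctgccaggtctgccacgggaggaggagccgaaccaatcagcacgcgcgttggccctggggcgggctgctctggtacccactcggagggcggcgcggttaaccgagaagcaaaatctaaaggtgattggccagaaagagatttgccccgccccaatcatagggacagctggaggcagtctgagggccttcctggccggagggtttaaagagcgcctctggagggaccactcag
Trib3: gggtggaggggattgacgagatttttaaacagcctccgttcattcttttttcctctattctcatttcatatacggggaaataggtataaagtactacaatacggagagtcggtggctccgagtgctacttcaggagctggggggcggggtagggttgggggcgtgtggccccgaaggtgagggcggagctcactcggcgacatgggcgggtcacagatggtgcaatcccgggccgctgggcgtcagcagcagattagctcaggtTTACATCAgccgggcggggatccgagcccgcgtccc
Psat1: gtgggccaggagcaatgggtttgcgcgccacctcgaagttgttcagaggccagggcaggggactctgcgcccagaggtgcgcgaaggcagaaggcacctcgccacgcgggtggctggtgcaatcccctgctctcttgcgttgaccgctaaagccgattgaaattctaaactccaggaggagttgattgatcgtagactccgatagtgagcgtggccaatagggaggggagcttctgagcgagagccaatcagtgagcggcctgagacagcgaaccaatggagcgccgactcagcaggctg
Phgdh: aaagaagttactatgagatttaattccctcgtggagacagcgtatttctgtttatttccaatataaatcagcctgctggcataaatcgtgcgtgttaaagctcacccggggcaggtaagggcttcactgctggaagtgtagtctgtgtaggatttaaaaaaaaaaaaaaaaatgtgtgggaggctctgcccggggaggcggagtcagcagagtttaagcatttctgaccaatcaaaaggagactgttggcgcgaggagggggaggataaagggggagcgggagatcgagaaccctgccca

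A match lay in the windows of 3 of the 10 genes. In Asns it read TGATGAAA on the gene's strand and began at -23 relative to the start, in Chac1 it read TTGCATCA at -193, and in Trib3 it read TTACATCA at 14, both being TGATGNAA read from the opposite strand. Among all 27025 genes with a window, 4.51% held the motif in either orientation. The windows of Psat1 and Phgdh, shown because these genes differed most between lines and livers, held none, and a second start of Psat1 held none either. The E-box CACGTG, which MYC can bind, was found in 0 of the 10 genes and in 8.09% of all genes. These matches describe letters in a 300-base window and not binding.

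The 3 enzymes that make serine from a glycolytic intermediate were all higher in the lines than in the livers, and Phgdh and Psat1 were the members furthest apart. Phgdh, which oxidises 3-phosphoglycerate at the entry of the pathway, stood at 11.55, 10.87 and 10.72 in lines 1, 2 and 3, against 6.38, 5.92 and 6.22 in KO livers and 5.90, 6.53 and 6.65 in WT livers. Every line lay more than 4 log2 units above the highest liver. Its log2 difference was 4.87 against KO livers (SE 0.254, adjusted p = 0.000297) and 4.69 against WT livers (SE 0.296, adjusted p = 0.000292), or 29.3-fold and 25.7-fold.

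Psat1, the aminotransferase that takes the amino group from glutamate, stood at 11.84, 11.41 and 10.69 in the lines, against 6.59, 6.11 and 6.48 in KO livers and 6.00, 6.34 and 6.48 in WT livers. The difference was 4.92 against KO livers (SE 0.321, adjusted p = 0.000627) and 5.04 against WT livers (SE 0.315, adjusted p = 0.000277). In the ranking of all 19938 genes by rise, Psat1 was number 16 against KO livers and 13 against WT livers, and Phgdh number 18 and 16. Psph, the phosphatase that releases serine, stood at 9.9998, 10.09 and 8.98 in the lines, against 7.02, 6.68 and 7.07 in KO livers and 7.25, 6.76 and 6.87 in WT livers. It was higher by 2.77 against KO livers (SE 0.330, adjusted p = 0.00446) and by 2.73 against WT livers (SE 0.331, adjusted p = 0.00284), and line 3 was the lowest line for all 3 enzymes.

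The liver levels of Phgdh and Psat1 lay below the median gene of the arrays. The table has no detection calls, so a level there may be background and the fold against it a low estimate. A further probe set, annotated to both Phgdh and Gm6756 and therefore not used, stood at 12.31, 11.77 and 11.05 in the lines, against 7.53, 7.42 and 7.55 in KO livers and 8.28, 8.03 and 8.12 in WT livers. In these bulk samples, fewer cells of a type and less RNA per cell cannot be told apart.

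**Figure D1:**
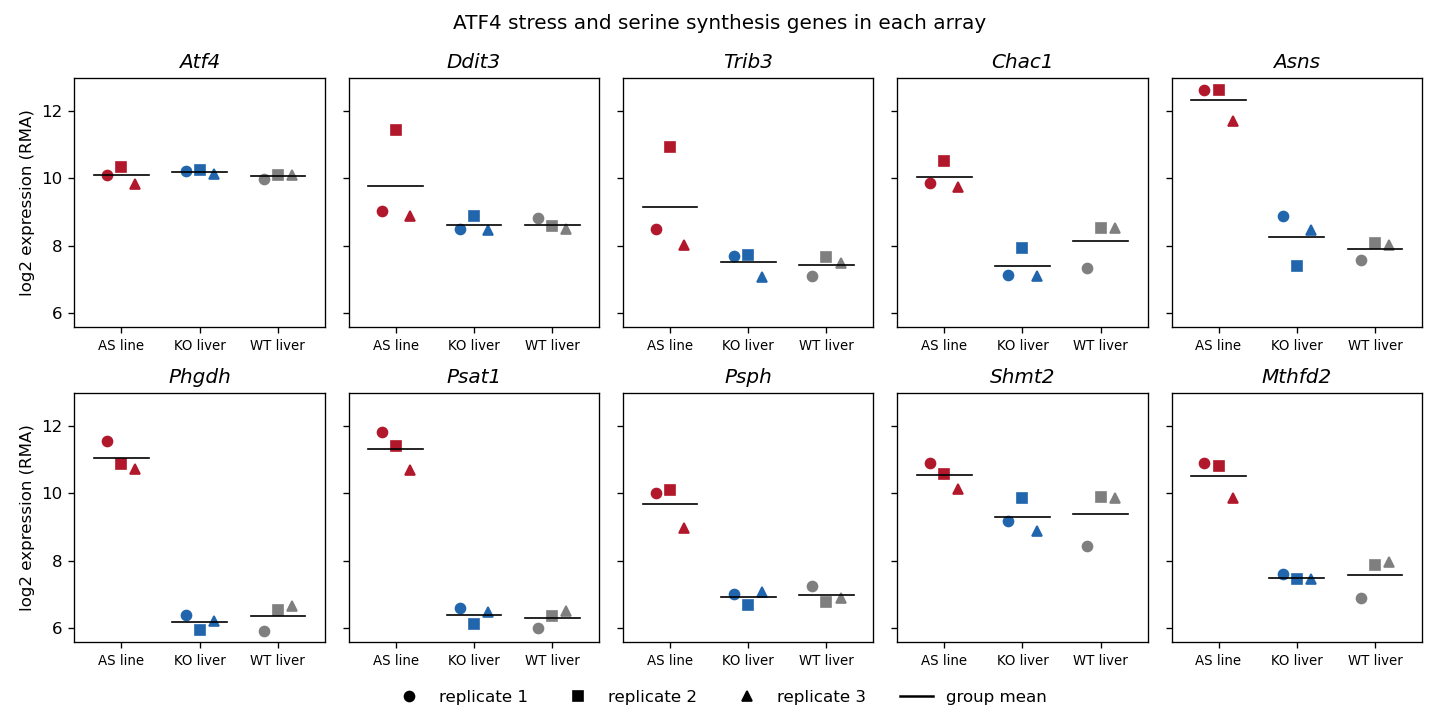
Log2 expression of each of the 10 genes (vertical axis) in each of the 9 arrays, with AS cell lines left, KO livers in the middle and WT livers right. Marker shapes give the replicate and the line the group mean of 3 arrays. Phgdh, Psat1, Psph, Asns and Mthfd2 lie apart from all livers in all 3 lines, Atf4 lies at about the same level in every array, and Ddit3 and Trib3 are highest in line 2.

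Downstream of serine, the mitochondrial enzymes differed by unequal amounts. Mthfd2, the dehydrogenase and cyclohydrolase of mitochondrial folate, typical of embryonic and dividing cells, stood at 10.91, 10.82 and 9.85 in lines 1, 2 and 3, against 7.59, 7.45 and 7.44 in KO livers and 6.88, 7.87 and 7.96 in WT livers. No line overlapped any liver, and the difference was 3.03 against KO livers (SE 0.301, adjusted p = 0.00250) and 2.96 against WT livers (SE 0.412, adjusted p = 0.00455). Shmt2, which splits serine into glycine and a one-carbon unit, stood at 10.89, 10.57 and 10.13 in the lines, against 9.19, 9.86 and 8.88 in KO livers and 8.43, 9.90 and 9.86 in WT livers. The lines lay above every liver, but line 3 by only 0.23 log2 units. Its difference of 1.22 against KO livers (SE 0.318) had an adjusted p of 0.0494, and that of 1.14 against WT livers (SE 0.452) an adjusted p of 0.121, which does not pass. The KO call held without KO replicate 2 and was lost without any other single array: leaving out KO liver 1 gave an adjusted p of 0.158, KO liver 3 gave 0.139, and lines 1, 2 and 3 gave 0.114, 0.118 and 0.0541.

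Asns, which makes asparagine from aspartate and glutamine, stood at 12.64, 12.63 and 11.71 in lines 1, 2 and 3, against 8.88, 7.39 and 8.46 in KO livers and 7.57, 8.09 and 8.01 in WT livers. All 3 lines were at least 2.83 log2 units above the highest liver. The difference was 4.08 against KO livers (SE 0.469, adjusted p = 0.00396) and 4.44 against WT livers (SE 0.300, adjusted p = 0.000373), or 16.9-fold and 21.7-fold. Asns ranked number 44 among all genes by rise against KO livers and 21 against WT livers.

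Atf4 and the stress-response genes did not move together. Atf4 stood at 10.11, 10.33 and 9.82 in lines 1, 2 and 3, against 10.20, 10.24 and 10.14 in KO livers and 9.98, 10.09 and 10.10 in WT livers, so the groups overlapped. Its difference was -0.11 against KO livers (95% interval -0.47 to 0.25, adjusted p = 0.660) and 0.03 against WT livers (95% interval -0.33 to 0.39, adjusted p = 0.899). The sign against WT livers turned to -0.18 when arrays were scaled to a common 75th percentile, which moved the median of all genes by about as much. A difference as large as that of Asns lies outside both intervals.

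Chac1, a stress-induced enzyme that breaks down glutathione, was the member of this subgroup that rose in the test. It stood at 9.86, 10.51 and 9.75 in the lines, against 7.13, 7.92 and 7.09 in KO livers and 7.35, 8.51 and 8.51 in WT livers. Each line was above each liver. The difference was 2.66 against KO livers (SE 0.314, adjusted p = 0.00436) and 1.92 against WT livers (SE 0.388, adjusted p = 0.0166).

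Ddit3 encodes CHOP, a factor linked to cell death under endoplasmic reticulum stress, and Trib3 a pseudokinase that CHOP and ATF4 induce. Ddit3 stood at 9.04, 11.43 and 8.89 in lines 1, 2 and 3, against 8.48, 8.88 and 8.46 in KO livers and 8.81, 8.58 and 8.48 in WT livers. Line 2 was 2.55 log2 units above the highest liver, whereas line 3 exceeded it by 0.0059. Trib3 stood at 8.49, 10.95 and 8.01 in the lines, against 7.70, 7.73 and 7.07 in KO livers and 7.09, 7.66 and 7.47 in WT livers. It showed the same order, with line 2 at 3.22 and line 3 at 0.28 above the highest liver. Against KO livers the differences were 1.18 for Ddit3 (SE 0.722, adjusted p = 0.325) and 1.65 for Trib3 (SE 0.806, adjusted p = 0.225), and against WT livers 1.16 (SE 0.699, adjusted p = 0.280) and 1.74 (SE 0.778, adjusted p = 0.158), none past the threshold. Without line 2 they were 0.35 and 0.75 against KO livers and 0.34 and 0.84 against WT livers.

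Counted over the 10 genes, 7 rose and 0 fell against KO livers at an adjusted p under 0.05, where 11.4% of all genes tested rose and 10.1% fell. Against WT livers 6 rose and 0 fell, where 17.6% of all genes rose and 11.1% fell. The split of all genes against WT livers, 3506 higher and 2209 lower, became 2476 higher and 2884 lower with 75th percentile scaling, while the 6 members were still called. In 9 of 10 genes every line lay above every liver of the KO group, and likewise of the WT group, against 24.1% and 28.3% of all genes; the exception was Atf4. Both comparisons use the same 3 lines. The members were chosen with earlier results of these data known, so these counts describe them and do not test the list. The median difference of the 10 was 2.72 against KO livers and 2.32 against WT livers, beside 0.05 and 0.02 for all genes. With 3 against 3 arrays an exact 2-sided permutation test of a single gene cannot go below 0.1, the value it gave for each of these 9 genes.

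**Figure D2:**
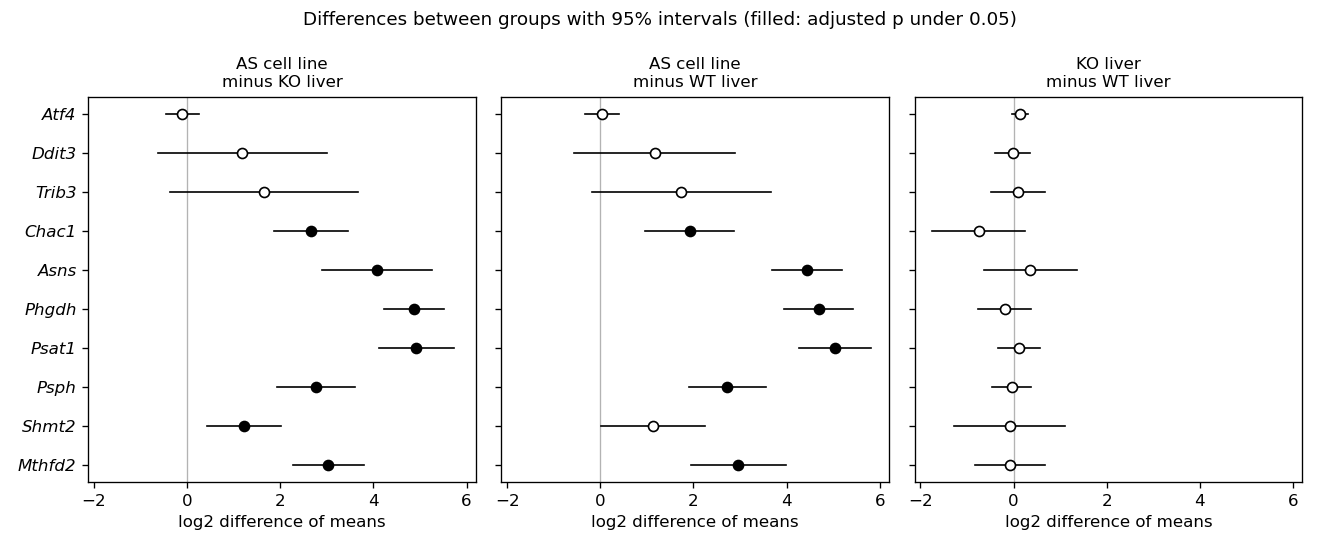
Log2 difference of group means (horizontal axis) for each of the 10 genes, with 95% intervals from the limma fit: AS cell lines minus KO livers (left), AS cell lines minus WT livers (middle) and KO livers minus WT livers (right). Filled points have an adjusted p under 0.05: 7 genes on the left, 6 in the middle and 0 on the right.

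Set against the 6 livers of both genotypes, lines 1 and 3 each had 9 of the 10 genes above every liver and line 2 had 10, where 32%, 35.8% and 35.2% of all genes did so in lines 1, 3 and 2; under 75th percentile scaling the members' counts were 8, 8 and 9 in that order. The lines were not alike. Line 2 stood above the mean of the other lines by 2.47 for Ddit3 and 2.70 for Trib3, a margin that 0.456% and 0.356% of all genes reached. For Chac1 the margin was 0.70 and for Psph 0.60, whereas for Phgdh it was -0.27 and for Shmt2 0.06. Line 3 was the lowest line for all 10 genes, and the share of all genes lowest there was not counted. For some the gap was small: Ddit3 was at 8.89 against 9.04 in line 1, and Chac1 at 9.75 against 9.86. Markers that differed among the lines were the hepatocyte list, of which 20 of 22 genes were highest in line 2, and the cell cycle list, whose mean was 10.66, 7.22 and 8.58 in lines 1, 2 and 3. All 17 genes for endoplasmic reticulum chaperones and their regulators were highest in line 2 among the lines (median margin 0.71), compared with 36.2% of all genes. With 1 array per line these are values without a test, and the part of hepatocyte and cell cycle genes in them was not tested.

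Other genes of the pathway were taken from lists chosen by function, also with earlier results of these data known. Each count stands beside the same shares of all genes. These were 11.4% higher and 10.1% lower against KO livers and 17.6% higher and 11.1% lower against WT livers. Most genes that charge tRNAs rose: 14 of 18 cytosolic aminoacyl-tRNA synthetases rose against KO livers and 16 of 18 against WT livers, and 0 fell. Their median difference was 1.18 against KO livers and 1.35 against WT livers. Cars, the cysteine enzyme, differed by 1.89 (SE 0.133, adjusted p = 0.000790) against KO livers and by 2.02 (SE 0.274, adjusted p = 0.00418) against WT livers. Sars and Gars, for serine and glycine, differed by 1.73 and 1.69 against KO livers (adjusted p = 0.00799 and 0.00238), and Iars and Lars, for isoleucine and leucine, by 2.00 and 1.97 against WT livers (adjusted p = 0.00172 and 0.0125).

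Amino acid carriers were mostly higher in the lines, with a positive difference for 8 of 10 in each comparison and a negative one for 2. Of 10 transporters, 6 rose and 1 fell against KO livers, and 5 rose and 1 fell against WT livers. Slc7a11, the cystine carrier, stood at 9.46, 10.63 and 8.41 in lines 1, 2 and 3, against 5.10, 5.38 and 4.95 in KO livers and 5.45, 5.71 and 5.77 in WT livers. Lines and livers did not overlap, with a difference of 4.36 against KO livers (SE 0.566, adjusted p = 0.00585) and 3.86 against WT livers (SE 0.549, adjusted p = 0.00490). Slc1a4, a carrier of alanine and serine, differed by 2.87 against KO livers (adjusted p = 0.00320) and 2.56 against WT livers (adjusted p = 0.00287). The glycine carrier Slc6a9 differed by 2.94 against KO livers (adjusted p = 0.0261), a call kept without KO replicate 2 at a difference of 3.62 and lost without any other array, with adjusted p up to 0.0925.
The transporter that fell was Slc38a2, the neutral amino acid carrier SNAT2, itself a known ATF4 target, at -0.82 against KO livers (adjusted p = 0.00313) and -0.88 against WT livers (adjusted p = 0.00239); it was named after its values were seen. The other transporters called against WT livers, likewise named after their values were seen, were the arginine carrier Slc7a1 (1.76), Slc38a1 (1.11) and again Slc6a9 (2.39). The arginine carrier Slc7a3 stood at 9.0004, 8.56 and 6.01 in lines 1, 2 and 3, against 5.34, 4.92 and 5.16 in KO livers and 5.14, 5.16 and 5.35 in WT livers, and its difference of 2.64 against WT livers had an adjusted p of 0.0549. Without line 3 that difference was 3.56 (adjusted p = 0.000715).

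Among 14 further stress outputs, 4 rose against KO livers and 6 against WT livers, and 0 and 1 fell. Vldlr, a lipoprotein receptor, differed by 3.54 against KO livers (adjusted p = 0.00541) and 3.00 against WT livers (adjusted p = 0.00261). Aldh18a1, the enzyme at the start of proline synthesis, differed by 2.57 (adjusted p = 0.00449) and 2.80 (adjusted p = 0.000900), and Pck2, the mitochondrial phosphoenolpyruvate carboxykinase, by 1.94 (adjusted p = 0.00222) and 2.44 (adjusted p = 0.000260). The fourth call against KO livers, Eif4ebp1, a brake on translation, was named after its values were seen. Its difference of 0.90 (adjusted p = 0.0188) kept its call in 3 of 6 omissions and lost it without KO replicate 3 (adjusted p = 0.0676), line 1 (0.0539) or line 2 (0.0526). Ddit4, an inhibitor of the growth kinase mTORC1, fell against WT livers by a difference of -1.84 (adjusted p = 0.0169). That call, also named after its values were seen, was lost without WT replicate 2 (adjusted p = 0.0685), WT replicate 3 (0.0673) or line 3 (0.0540).

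Of 15 further folate and glycine genes measured, 3 rose against KO livers, 6 rose against WT livers and 0 fell in either, where 11.4% of all genes rose against KO livers and 17.6% against WT livers. The count against KO livers is not far from that share. The cytosolic Aldh1l1 differed by -2.13 against WT livers (adjusted p = 0.0921), which does not pass. Atic, a late enzyme of purine synthesis, differed by 1.54 against KO livers (adjusted p = 0.0102) and by 1.86 against WT livers (adjusted p = 0.00404). Gldc, the decarboxylase of the glycine cleavage system, stood at 10.87, 10.74 and 10.73 in lines 1, 2 and 3, against 6.53, 8.70 and 6.05 in KO livers and 7.22, 8.91 and 9.26 in WT livers. The lines were close to each other and the livers were not. Its difference was 3.69 against KO livers (adjusted p = 0.0193) and 2.32 against WT livers (adjusted p = 0.0252). Without KO replicate 2 it was 4.49 and without WT replicate 1 it was 1.69, both called; the call against KO livers was lost without any other array (adjusted p up to 0.0782), and that against WT livers held only without WT replicate 1 or 3 (otherwise up to 0.0666).

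Aldh1l2, the mitochondrial enzyme that releases one-carbon units as carbon dioxide, stood at 8.72, 10.30 and 7.59 in lines 1, 2 and 3, against 5.36, 5.48 and 5.61 in KO livers and 5.36, 5.54 and 5.41 in WT livers. All lines exceeded all livers, line 2 by most. The difference was 3.38 against KO livers (adjusted p = 0.0227) and 3.44 against WT livers (adjusted p = 0.0139). Without line 2 it was 2.67 and 2.73, both called. Against KO livers the call was lost without line 1 or any KO array (adjusted p up to 0.0868), and against WT livers without any WT array (up to 0.0553).

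Of 10 genes for the breakdown of serine, glycine and sulphur amino acids in liver, 0 rose or fell against KO livers. Against WT livers 0 rose and 3 fell. Gnmt, the liver enzyme that methylates glycine, differed by -4.18 against WT livers (adjusted p = 0.00317), and Dmgdh, the dimethylglycine dehydrogenase of choline breakdown, by -4.18 (adjusted p = 0.00174). Agxt, the glyoxylate aminotransferase, differed by -3.04 (adjusted p = 0.0168); without WT replicate 1 it was -3.76, and the call was lost without WT replicate 2 (adjusted p = 0.0622) or 3 (0.0614). Against KO livers, Dmgdh, Gnmt and the cystathionine lyase gene Cth differed by -2.73, -2.30 and 1.71, none called. These are hepatocyte genes, and the hepatocyte list was lower in the same arrays, with 13 of 22 called lower against WT livers; its part in this result was not tested.

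The chaperone arm of endoplasmic reticulum stress gave few calls. Of 17 genes, 0 were called against KO livers by limma, with 2 at an unadjusted p under 0.05 (33.9% of all genes), and 1 fell against WT livers. The median difference was -0.06 against KO livers and 0.06 against WT livers. Dnajb9 and Ern1, a chaperone and the stress sensor IRE1, differed by -0.90 and -0.82 against KO livers and by -1.02 and -0.97 against WT livers, none called. The gene that fell was Dnajc3, an inhibitor of eIF2α kinases, at -0.78 against WT livers (adjusted p = 0.0323). Its call held without line 2 or WT replicate 1 and was lost in the other 4 omissions (adjusted p up to 0.103). Of 7 genes for mitochondrial proteostasis, 4 rose against KO livers and 3 against WT livers. Clpp, a mitochondrial protease subunit, differed by 1.60 (adjusted p = 0.00191) and 1.44 (adjusted p = 0.000758), and the chaperonin gene Hspe1 by 1.35 (adjusted p = 0.00786) and 1.20 (adjusted p = 0.00322). Yme1l1, an inner membrane protease named after its values were seen, differed by 0.90 against WT livers (adjusted p = 0.0113) and by 0.67 against KO livers (adjusted p = 0.0267), the second lost without line 1 or any KO array (up to 0.103). The chaperonin Hspd1 differed by 1.45 against KO livers (adjusted p = 0.0505) and by 1.29 against WT livers (adjusted p = 0.0555), and the protease Lonp1 by 1.48 against WT livers (adjusted p = 0.0765), none past the threshold. Hspa9, a mitochondrial chaperone named after its values were seen, differed by 0.95 against KO livers (adjusted p = 0.0459), a call kept without line 2 and lost in the other 5 omissions (up to 0.147).

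Upstream of Atf4, 0 of 6 genes for eIF2α kinases and phosphatase subunits rose and 2 fell in both comparisons. Ppp1r15a, the stress-induced phosphatase subunit GADD34 and itself an ATF4 target, stood at 8.05, 10.05 and 8.61 in lines 1, 2 and 3, against 10.997, 11.33 and 10.89 in KO livers and 12.15, 11.06 and 10.98 in WT livers. Every line was below every liver, line 2 by least. The difference was -2.17 against KO livers (adjusted p = 0.0407) and -2.49 against WT livers (adjusted p = 0.0283). Both calls held without line 2, at -2.74 and -3.06, and were lost without any other array (adjusted p up to 0.123 and 0.0878). Eif2ak2, the kinase PKR that senses double-stranded RNA and is induced by interferon, differed by -1.42 against KO livers (adjusted p = 0.0185) and by -0.75 against WT livers (adjusted p = 0.0315). Its calls held in 3 of 6 and 1 of 6 omissions (adjusted p up to 0.0578 and 0.105). Ppp1r15b, the constitutive phosphatase subunit, differed by -0.42 and -0.21, not called. The livers came from mice given poly(I:C), and the part of that treatment was not tested.

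Among 7 partner factors of ATF4, 1 rose and 1 fell against KO livers, and 2 rose and 3 fell against WT livers. With 7 genes, 1 call in each direction against KO livers is near the shares of all genes, 11.4% higher and 10.1% lower. Nupr1, a stress-induced chromatin factor, stood at 9.54, 10.89 and 9.45 in lines 1, 2 and 3, against 7.49, 8.11 and 7.50 in KO livers and 8.17, 7.79 and 7.50 in WT livers. It differed by 2.26 against KO livers (adjusted p = 0.0209) and by 2.14 against WT livers (adjusted p = 0.0159), each call kept in 4 of 6 omissions (adjusted p up to 0.0841 and 0.0644). Atf3, a stress factor that ATF4 induces, went the other way, at 8.36, 10.69 and 8.12 in the lines, against 12.19, 12.74 and 12.45 in KO livers and 12.86, 12.49 and 12.38 in WT livers. Its difference was -3.40 against KO livers (adjusted p = 0.0268) and -3.52 against WT livers (adjusted p = 0.0155). Without line 2 it was -4.22 and -4.34, both called; against KO livers the call was lost without any other array (adjusted p up to 0.0915), and against WT livers without any WT array (up to 0.0609).

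Cebpa, a hepatocyte factor, differed by -1.60 against KO livers (adjusted p = 0.0706) and by -1.67 against WT livers (adjusted p = 0.00362). Cebpb and Atf5 were named after their values were seen: Cebpb differed by -1.33 against WT livers (adjusted p = 0.00383) and Atf5 by 0.99 (adjusted p = 0.0298), the Atf5 call holding only without line 1 (otherwise adjusted p up to 0.0843). Like Ddit3 and Trib3, Atf3 and Ppp1r15a were higher in line 2 than in the mean of the other lines, by 2.45 and 1.72, margins that 0.471% and 1.23% of all genes reached.

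**Figure D3:**
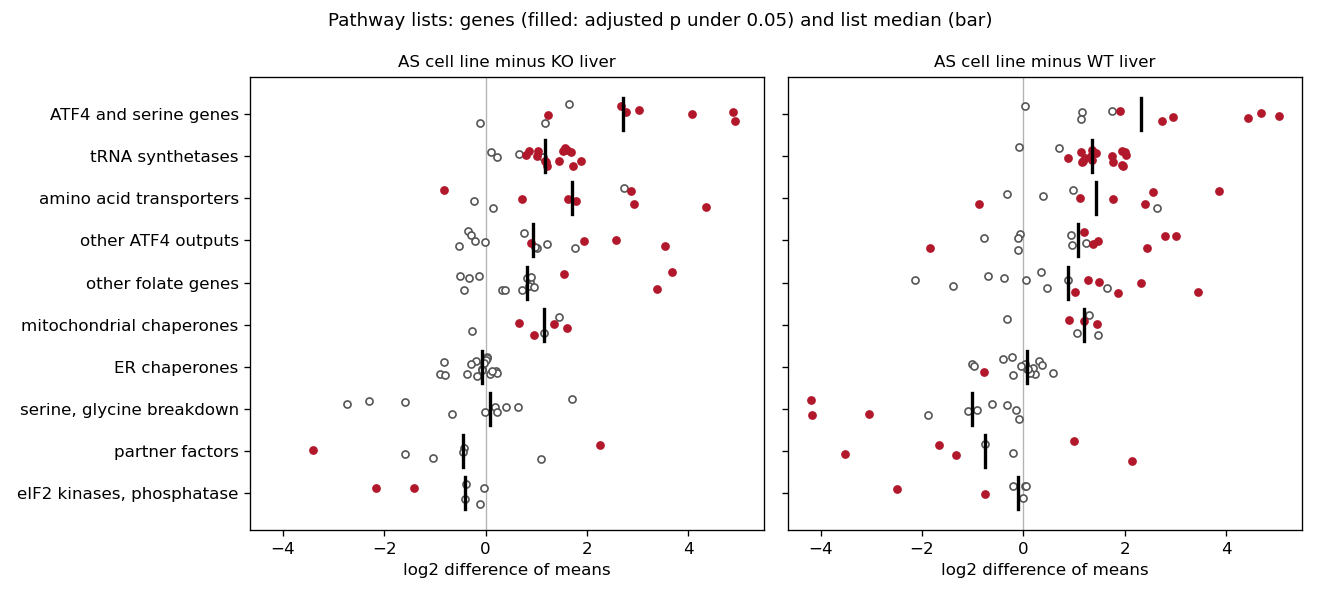
Log2 differences of the single genes in each functional list (points, horizontal axis) for AS cell lines minus KO livers (left) and AS cell lines minus WT livers (right). Filled points have an adjusted p under 0.05 and bars are list medians. The tRNA synthetases lie mostly to the right of 0 in both comparisons with the lines, while the endoplasmic reticulum chaperones lie around 0.

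KO livers and WT livers were also compared. Between them only the KO mice carried Cre, so Notch1 loss and Cre itself cannot be told apart. None of the 10 genes was called by limma, and 0 had an unadjusted p under 0.05, where 0% of all genes passed the adjusted threshold and 22.5% the unadjusted one. With array weights estimated by limma, 1 of the 10, Chac1, was called lower at -1.27 (adjusted p = 0.0136). The same weights called 5744 of all 19938 genes, 1839 of them lower. Unweighted, Chac1 differed by -0.75 (95% interval -1.75 to 0.25, adjusted p = 0.323). KO livers 1 and 3 were below every WT liver for it, and KO liver 2 lay between WT livers.

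Atf4 was the member whose groups did not overlap, with all KO livers above all WT livers, as held for 19.2% of all genes. Its difference was 0.14 (95% interval -0.02 to 0.30, adjusted p = 0.273) and turned to -0.04 with 75th percentile scaling, which moved the median of all genes by -0.18. Asns differed by 0.36 (95% interval -0.64 to 1.35, adjusted p = 0.599), with KO liver 2 the lowest of all livers and KO livers 1 and 3 the highest. Phgdh differed by -0.19 (95% interval -0.76 to 0.38) and Psat1 by 0.12 (95% interval -0.33 to 0.57). For Shmt2 the interval was wide, -1.27 to 1.10, and WT liver 1 was the lowest liver. A 2-fold change either way lies outside the intervals of Atf4, Ddit3, Trib3, Phgdh, Psat1, Psph and Mthfd2, and inside those of Chac1, Asns and Shmt2.

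Marker lists of other cells also differed between these livers. All 22 hepatocyte genes had a negative KO minus WT difference (median -1.24), although the list mean of KO liver 2, 12.69, was not below any WT liver. All 15 cell cycle genes were above WT in every KO liver (median 1.61), as held for 19.2% of all genes. In either list 0 were called. All 10 T and NK cell genes were negative (median -1.46, 0 called), and their mean was 6.56, 6.59 and 6.78 in KO livers 1, 2 and 3, against 6.36, 8.81 and 8.69 in WT livers 1, 2 and 3, so that WT liver 1 lay below the KO livers. All 9 bile duct genes were negative too (median -0.82, 0 called), 7 at an unadjusted p under 0.05, where 22.5% of all genes were in either direction. The 10 genes of serine, glycine and sulphur amino acid breakdown were likewise all negative (median -1.45, 0 called, 0 at an unadjusted p under 0.05). Their mean was 8.10, 10.54 and 7.40 in KO livers 1, 2 and 3. It was 9.02, 10.37 and 10.35 in WT livers 1, 2 and 3, so that KO liver 2 lay above them. The part of cell makeup in the members' values was not tested. A fit with the hepatocyte mean as a covariate called 0 of the 10 genes and 1 of all genes. The fit without it had already called 0 of either, so these counts do not bear on that part.

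In the companion lists 0 genes were called between KO and WT livers. The largest difference in each was 0.67 for Eif2ak2, -0.32 for the repressor Jdp2, 0.84 for the glutamine carrier Slc1a5, 0.61 for the phenylalanine synthetase subunit Farsa, -1.48 for Ddit4, -1.62 for the folate dehydrogenase Aldh1l1, -2.04 for the cystathionine lyase Cth, 0.42 for the disulfide isomerase Pdia6 and 0.33 for the mitochondrial protease Lonp1. Ddit4 stood at 8.98, 9.35 and 9.21 in KO livers, against 10.10, 10.96 and 10.93 in WT livers, without overlap (adjusted p = 0.0995). Its adjusted p was 0.0417 without WT replicate 1 and 0.0472 without KO replicate 2. Of all 19938 genes, 60 were called without WT replicate 1 and 1949 without KO replicate 2. Without KO replicate 2, Farsa had an adjusted p of 0.0213, and Cth differed by -3.21 (adjusted p = 0.0341); Aldh1l1 then differed by -2.57, still not called.

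**Figure D4:**
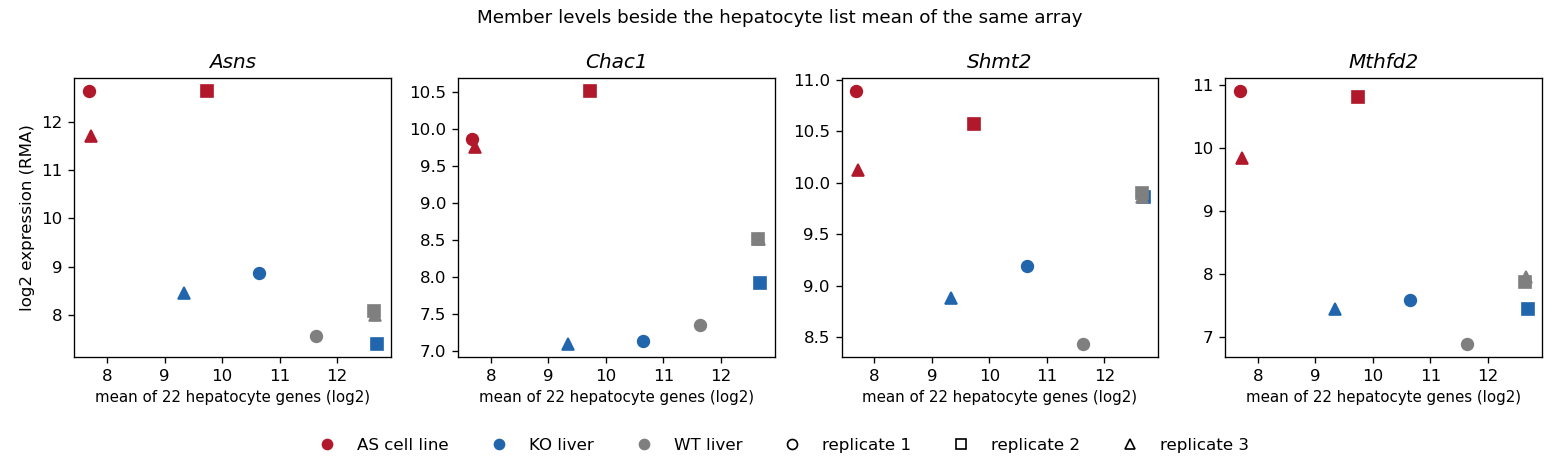
Mean log2 level of the 22 hepatocyte genes in each array (horizontal axis) against the log2 level of Asns, Chac1, Shmt2 or Mthfd2 (vertical axis), coloured by AS cell line, KO liver and WT liver, with shapes for the replicate. KO livers 1 and 3 lie left of the other livers, and lines 1 and 3 lie left of all livers.

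Genes whose centred profile over the 9 arrays lay nearest to a member were found by root mean square distance in log2 units. Nearest to Phgdh were Itga3 (0.302), Myo5c (0.348) and Mboat1 (0.373). Nearest to Asns were Itga3 (0.437), Cd63 (0.442) and Rrm2 (0.511), and nearest to Chac1 were Ablim1 (0.212), Akr1c13 (0.269) and Gclc (0.271). These profiles are set mostly by the step between lines and livers.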

How the data were processed

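The authors deposited 1 log2 expression value per probe set and array, from RMA in the oligo package per the submitters' processing notes, which name no version. The 9 arrays share almost the same distribution, which hides any shift common to most genes, and there are no detection calls. Of 35556 probe sets, 21789 had 1 gene, 1621 several (not used) and 12146 none. The probe set of highest mean over the 9 arrays was kept per gene, which left 19938 genes. Groups follow the labels. Each pair was fitted with limma 3.58.1 in R 4.3.3 (lmFit and eBayes, 2-sided) on its 6 arrays, with no covariate. P-values were adjusted over all genes by the Benjamini-Hochberg method, and calls were made under 0.05. The limma fit was tested on simulated data with independent noise per gene. Those data hold no variation shared by the genes of an array, so the test does not cover it. Figures used matplotlib 3.10.9. With 3 arrays a group, their number limits the precision.

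The members and lists were chosen with earlier results of these data known. The text names all members, Notch1, and up to 3 genes of largest absolute difference per companion list and comparison (for KO against WT, the first of them); others are marked as named after their values were seen. List entries without a probe set of their own were not analysed here. Alternatives changed the replicate block, arrays fitted, moderation, dim-gene filter, scaling, normalization, probe sets, array weights, threshold and single replicates.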

Additional observations from a re-analysis of the deposited data

How the results depend on the processing

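Of the 10 genes, 7, 6 and 0 were called in AS lines against KO livers, AS lines against WT livers and KO against WT livers, and the same counts came with the replicate block (7, 6 and 0). Leaving out each array gave 6 to 7, 6 to 6 and 0 to 0. Array weights called 1 of 10 between KO and WT livers, and all 9 arrays in one fit called 6 against KO livers. Over all genes these settings called 5744 and 5480, where the main fits called 0 and 4275. With 75th percentile scaling or repeated quantile normalization, both chosen for the single lines after seeing the data, 8, 9 and 8 genes lay above every liver in lines 1, 2 and 3.

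Deviations from the group mean correlated at 0.31, 0.43 and -0.39 between same-numbered KO and WT livers. The values were 0.24, 0.34 and 0.07 between lines and KO livers, and 0.04, 0.17 and -0.16 between lines and WT livers. Differently numbered arrays reached 0.47 (KO liver 3 with WT liver 1) and 0.20 (line 1 with KO liver 3). Such correlations also carry cell makeup, so they cannot settle whether the replicate numbers pair the samples. Over all genes the block gave 0 calls between KO and WT livers, 3426 against KO livers and 4494 against WT livers. Between KO and WT livers the count of 0 became 5744 with array weights, 1949 without KO replicate 2, 60 without WT replicate 1, 366 at an adjusted p under 0.10, 2 with all 9 arrays and 1 with the hepatocyte covariate. Against KO livers the count of 4275 became 2281 when KO liver 1 was left out, 2310 when KO liver 3 was, and 2638 at 2-fold or more. Against WT livers the count of 5715 became 3397 when WT liver 2 was left out, 3556 when WT liver 3 was, and 3492 at 2-fold or more.

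Signs that turned were all of differences not called. Between KO and WT livers, 75th percentile scaling gave -0.042 for Atf4, -0.090 for Trib3 and -0.064 for Psat1; array weights gave -0.13 for Trib3, 0.19 for Psph and -0.078 for Lonp1; the hepatocyte covariate gave 0.11 for Ddit3, -0.020 for Asns, 0.51 for Shmt2 and 0.076 for Mthfd2. Leaving out single arrays gave -0.15 to 0.079 for Ddit3, -0.067 to 0.31 for Trib3, -0.021 to 0.26 for Psat1, -0.14 to 0.10 for Psph, -0.57 to 0.17 for Shmt2, -0.42 to 0.12 for Mthfd2 and -0.012 to 0.51 for Lonp1. Atf4 ran from -0.23 to 0.026 against KO livers and from -0.091 to 0.17 against WT livers, where it was -0.18 with 75th percentile scaling, -0.090 with repeated quantile normalization and -0.027 with array weights. The cause was not tested.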
